A study of Mus musculus with 24 samples.

Results

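The cytosolic heat shock genes described here are 10 of the 43629 genes in a table of read counts from 2 mouse tumour cell lines: Hspa1a, Hspa1b, Hspa8, Hsp90aa1, Hsp90ab1, Hsph1, Dnajb1, Hspb1, Bag3 and Hsf1. They were chosen by name, as the main cytosolic chaperones of the heat shock response, their partners and the factor that drives them, and not by a measured value. E0771 is a line from a breast adenocarcinoma and MC38 a line from a colon adenocarcinoma. Cells of each line were kept for 3 h with DMSO, the solvent, with 2.5 µM RG6146, with 10 ng/mL recombinant murine TNF, or with RG6146 and TNF together (the combination). RG6146 is an inhibitor of BET bromodomains, and TNF is an inflammatory cytokine that signals to NF-kB. Each line and treatment has 3 libraries of 3′ end sequencing, 24 in all. Nothing in the labels tells whether replicates come from separate cultures, and the p-values therefore measure the spread between libraries, which may be technical. The growth text, shared by every sample, speaks of MC38-Ova cells, and the line was taken from the sample labels.

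Heat shock proteins are chaperones that hold, fold or hand on unfolded proteins. HSF1 is kept inactive by chaperones in unstressed cells, and when unfolded proteins occupy those chaperones it forms trimers, binds heat shock elements in promoters and raises transcription of chaperone genes. The HSP70 proteins bind and release clients in an ATP cycle that J-domain proteins such as DNAJB1 start and exchange factors such as HSPH1 and BAG3 reset, and the HSP90 proteins take over late-folding clients such as kinases and hormone receptors.

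Promoter sequence is shown for Hspa1b and Dnajb1, the genes with a called treatment effect that had a promoter entry, and for Hspa1a, the near-identical neighbour of Hspa1b. The 250 bases before the RefSeq start site were taken from RefSeq on GRCm38.p6, which had an entry for 6 of the 10 genes, and were searched for 2 forms of the heat shock element, GAANNTTC and TTCNNGAA. Each form reads the same on both strands, and neighbouring matches may share a unit. Capitals mark a match. The sequences lie at chr17:34959239-34959488 on the minus strand (Hspa1b), at chr17:34972157-34972406 on the minus strand (Hspa1a) and at chr8:83607925-83608174 on the plus strand (Dnajb1), and are given 5′ to 3′ on the strand of the gene.
Hspa1b: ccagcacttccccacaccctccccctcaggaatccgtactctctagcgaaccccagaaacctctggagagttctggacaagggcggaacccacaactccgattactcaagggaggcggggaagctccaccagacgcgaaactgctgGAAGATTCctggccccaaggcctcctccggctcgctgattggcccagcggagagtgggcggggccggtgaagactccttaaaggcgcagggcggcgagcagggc
Hspa1a: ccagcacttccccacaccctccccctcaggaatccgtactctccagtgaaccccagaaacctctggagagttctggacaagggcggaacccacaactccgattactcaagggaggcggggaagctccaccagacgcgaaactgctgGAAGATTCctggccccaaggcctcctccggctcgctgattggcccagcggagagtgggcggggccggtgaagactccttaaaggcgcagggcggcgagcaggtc
Dnajb1: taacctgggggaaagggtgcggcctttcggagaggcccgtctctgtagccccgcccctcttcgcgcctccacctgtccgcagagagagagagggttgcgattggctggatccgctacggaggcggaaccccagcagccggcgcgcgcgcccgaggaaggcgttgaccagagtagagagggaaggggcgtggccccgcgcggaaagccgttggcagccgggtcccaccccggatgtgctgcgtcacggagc
The Hspa1b and Hspa1a windows differ at 3 of 250 bases, and each holds 1 match, 104 bases before the start. No match lies in this Dnajb1 window or in the Bag3 window, whereas Hsph1 has 1 and Hspb1 has 2. Such a match is common, since 12.8% of 32817 promoter windows of the same length hold one. A match is a description of letters and does not show binding.

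In the GENCODE annotation of GRCm38 (mm10), Hspa1b (ENSMUSG00000090877) lies at chr17:34956436-34959238 and Hspa1a (ENSMUSG00000091971) at chr17:34969190-34972156. Both have 1 exon and lie on the minus strand, and an exon of Gm20481 lies opposite Hspa1a. Although 55.8% of the 75-base windows of the whole Hspa1b transcript recur exactly in Hspa1a, none of the windows in its last 600 bases does. The last 600 bases are where 3′ end reads are expected to fall. Hspa8 (chr9:40800984-40810087) is different, because 84.4% of such end windows recur in other genes, mostly in Gm15459, and 3 snoRNA genes lie in it on the same strand. Its counts are therefore uncertain. In Hspb1 the shared part is 23.2%, with Hsp25-ps1, in Hsp90ab1 it is 1.9%, and in the other 7 genes it is 0.

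The libraries held 5392406 to 9673118 counts, of which the 10 genes took between 0.769% and 1.27%. The treatments left their marks: Hexim1, which rises when BET proteins are inhibited, was higher with RG6146 by 1.42 ± 0.11 (log2 fold change ± SE) in E0771 and by 0.72 ± 0.18 in MC38 (edgeR quasi-likelihood test, adjusted p = 3.12e-06 and 0.0241). Nfkbia, the NF-kB feedback inhibitor, was higher with TNF by 3.51 ± 0.09 in E0771 and by 3.46 ± 0.13 in MC38. Of 9 epithelial markers, 8 stayed under 10 counts in every library of each line, while Krt8 had 456 to 1022 counts in E0771 and, in MC38, a median of 2 and a highest count of 54, in combination replicate 2. Some libraries stood apart. The share of mitochondrial rRNA was 1.69% to 3.23% in 22 libraries, but 0.376% in TNF replicate 2 of E0771 and 0.609% in DMSO replicate 2 of MC38. Leukocyte markers summed to 138.5 CPM (counts scaled to a common library total) in combination replicate 2 of MC38, against 1.86 to 5.98 in the other 11 MC38 libraries and 10.7 to 21.5 in E0771. In it 4 of the 10 markers, Ptprc, Lyz2, Laptm5 and Tyrobp, had 195, 432, 335 and 32 counts, over 10 times any other MC38 library, while Cd74 had 1. The same library had 8.08 CPM of epithelial markers (0.484 to 1.36 in the other 11), 4.82 of endothelial markers (0.507 to 2.52) and 306 of fibroblast markers (374 to 714.5). MC38 TNF replicate 1 lay furthest from the mean of its group among the MC38 libraries, at 0.516 (root mean square, log2).

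Between treatments the heat shock genes that passed the test after 3 h were all higher with RG6146, by 1.35-fold to 3.12-fold. In E0771 Dnajb1 rose with RG6146, a call that ended without any 1 of the 6 libraries compared. Hspa1b and Dnajb1 were higher there in the combination than with TNF. In MC38 the HSP90 genes Hsp90aa1 and Hsp90ab1 rose with RG6146, and no difference between the lines in this response passed the test. With 1 of the 6 libraries compared left out, Hsp90aa1 was called in 2 of 6 fits and Hsp90ab1 in 5. For Dnajb1 in the combination against TNF it was 2 of 6. The calls of these 3 comparisons are 1, 2 and 2 of 8 tested genes, beside 10.8%, 16.6% and 8.27% of all tested genes called. Counts out of 8 do not show that heat shock genes were called more often than other genes. TNF alone moved none past the threshold, an adjusted p under 0.05 over all genes tested. In bulk RNA a change in the mix of cells and a change in RNA per cell cannot be told apart. Of the 10 genes, 8 had enough counts to be tested in each line, and Hspa1a and Hspb1 did not. Whether the libraries of 2 groups overlap is told below for single genes. Overlap was not counted over all genes, and its absence adds no support to a difference.

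**Figure D1:**
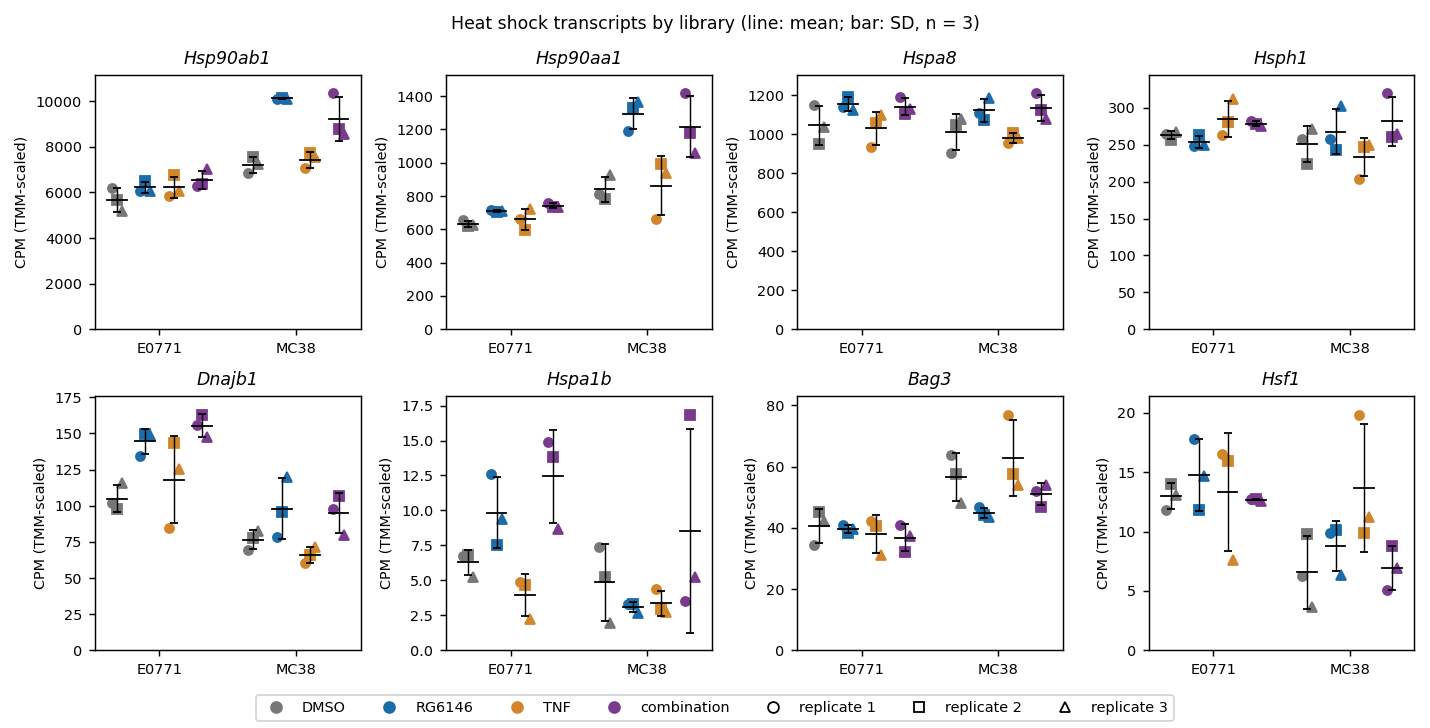
Level of 8 heat shock genes in each library, as CPM on 1 scale for all 24 libraries, by line (x axis) and treatment (colour). Symbols are replicates, lines are means and bars are SD with n = 3; the RG6146 libraries of MC38 stand above all DMSO libraries for Hsp90ab1 and Hsp90aa1, and 1 combination library of MC38 stands alone for Hspa1b.

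The number of heat shock genes called is given beside the share of all tested genes called. With RG6146 against DMSO, 1 of 8 was called in E0771, where 10.8% of all 12541 tested genes were called and 3.96% were called higher. In MC38 it was 2 of 8, where 8.27% of 13272 genes were called and 3.37% were called higher. With TNF against DMSO, edgeR's quasi-likelihood test called 0 of 8 in E0771 (2.32% of all genes) and 0 of 8 in MC38 (1.09%). At an unadjusted p under 0.05 there was 1 in each line, Hspa1b in E0771 and Hsf1 in MC38, and DESeq2 called 0 in both. Over all genes 1683 in E0771 and 1658 in MC38 had an unadjusted p under 0.05, and DESeq2 called 340 and 326. The combination against TNF gave 2 of 8 in E0771, where 16.6% of all genes were called and 7.12% were called higher. In MC38 it gave 0 of 8, against 11.3% of all genes. At an unadjusted p under 0.05 there were 6 of the 8, beside 3572 of all 13272 tested genes. Of the 6, Hspa1b, Hsp90aa1, Hsp90ab1 and Dnajb1 were higher in the combination, and Bag3 and Hsf1 were lower. DESeq2 called 3 of the 8 and 1720 of all genes. The median log2 fold change of the 8 genes with RG6146 was 0.17 in E0771 and 0.23 in MC38, beside 0.00 and -0.01 over all tested genes. In the combination against TNF it was 0.15 and 0.26, beside 0.00 and -0.03. For TNF against DMSO the medians of the 8 genes were 0.03 and 0.01, beside -0.02 and 0.02.

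**Figure D2:**
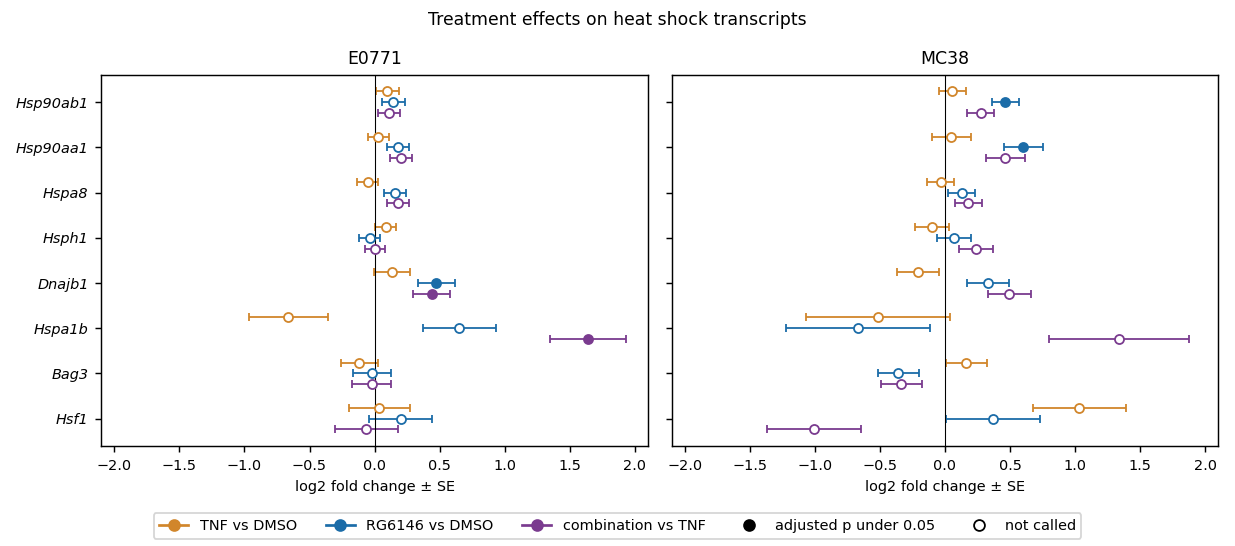
Log2 fold change ± SE (x axis) of 8 heat shock genes for TNF against DMSO, RG6146 against DMSO and the combination against TNF, in E0771 (left) and MC38 (right), 3 libraries a group. Filled points passed an adjusted p of 0.05: Dnajb1 and Hspa1b in E0771, and Hsp90ab1 and Hsp90aa1 in MC38.

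Hspa1b, the inducible HSP70, had the largest change of the 8 tested genes. In E0771 its level was 6.75, 6.85 and 5.27 CPM in the DMSO libraries, 4.91, 4.70 and 2.23 with TNF, 12.6, 7.55 and 9.38 with RG6146, and 14.9, 13.8 and 8.66 in the combination. All 3 TNF libraries lay below all DMSO libraries, and all RG6146 and combination libraries lay above them. The combination was 3.12-fold above TNF (log2 fold change 1.64 ± 0.29, adjusted p = 0.00148), and this call held without any 1 of the 6 libraries compared, with values from 1.40 to 1.84. RG6146 against DMSO gave 0.65 ± 0.28, adjusted p = 0.17, which became 0.0262 when only those 6 libraries were fitted. TNF against DMSO gave -0.66 ± 0.30, adjusted p = 0.363. The combination contrast has the TNF libraries as its control, so a low TNF level enters both values. The E0771 counts of Hspa1b behind these values were 12 to 78 per library, and TNF replicate 3, with the 12, was the lowest. With Hspa1a and Hspa1b summed as 1 gene the rise over TNF was 1.55 ± 0.30, adjusted p = 0.00287.

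In MC38 no difference of Hspa1b passed the test. Its level there was 7.37, 5.24 and 1.96 CPM with DMSO, 3.28, 3.30 and 2.66 with RG6146, 4.41, 2.94 and 2.73 with TNF, and 3.50, 16.9 and 5.21 in the combination. The groups overlapped in all 3 comparisons, and RG6146 against DMSO gave -0.67 ± 0.55 (adjusted p = 0.529). The combination against TNF gave 1.34 ± 0.54, adjusted p = 0.127, and 0.32 ± 0.45, adjusted p = 0.716, without combination replicate 2. The RG6146 response of E0771 minus that of MC38 was 1.28 ± 0.65 (adjusted p = 0.463), so a difference between the lines was not shown. For that difference 0 of the 8 genes passed, where 0.384% of 14058 genes did, 2 had an unadjusted p under 0.05 and DESeq2 called 0. Over all genes 1562 had an unadjusted p under 0.05 and DESeq2 called 124.

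Hspa1a, the other inducible HSP70 gene, was near 0 almost everywhere. It had 0 to 7 counts in 23 libraries and 130 in MC38 combination replicate 2, the library with 127 counts of Hspa1b, against 13 to 53 of Hspa1b in the other 11 MC38 libraries. The leukocyte, epithelial and endothelial markers named above were high in the same library and the fibroblast markers low, and their part in its HSP70 counts was not tested. Over the E0771 DMSO group Hspa1a had 3 counts, which is also the limit that a count of 0 allows there, 0.159 CPM.

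**Figure D3:**
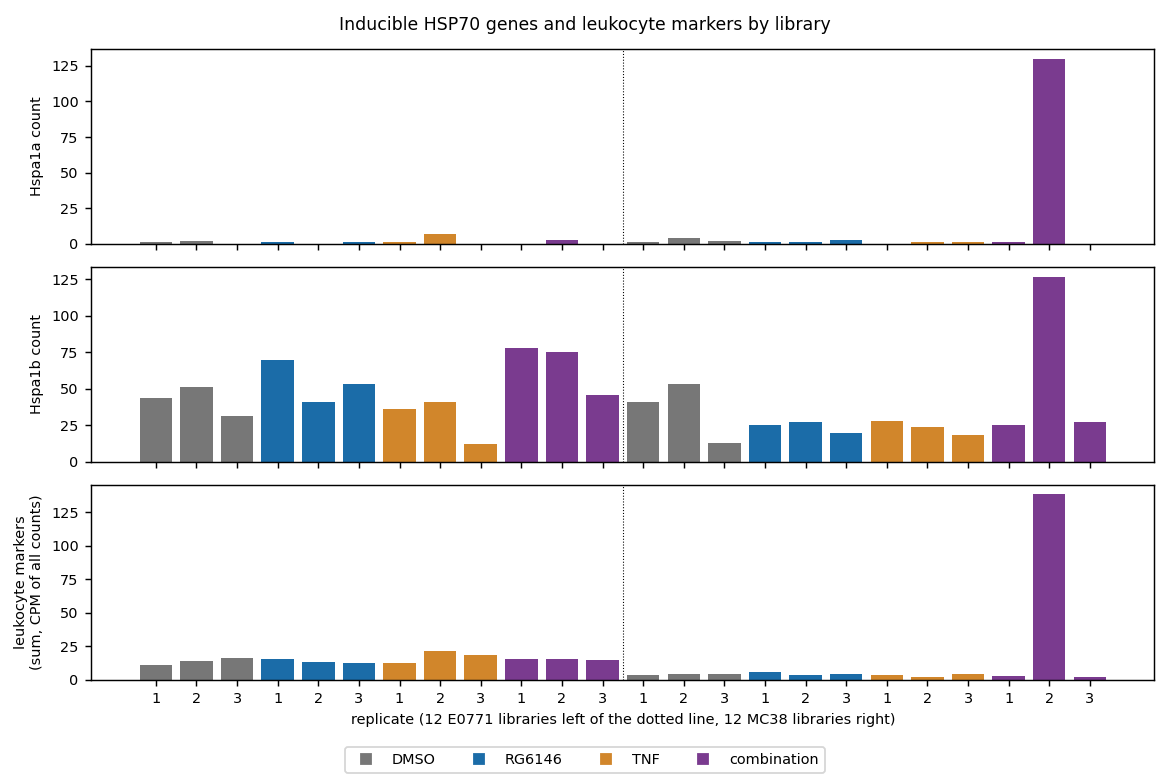
Counts of Hspa1a (top) and Hspa1b (middle) and the summed CPM of 10 leukocyte markers (bottom) in each of the 24 libraries, in the same order, coloured by treatment. In MC38 combination replicate 2 all 3 bars are the highest of the line, with 130 and 127 counts and 138.5 CPM.

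Dnajb1 (chr8:83608193-83612653, plus strand) encodes a J-domain protein that stimulates HSP70. In E0771 it stood at 102, 97.9 and 115 CPM with DMSO and at 134.5, 149.8 and 149.2 with RG6146. The groups did not overlap, and the rise was 1.39-fold (0.48 ± 0.14, adjusted p = 0.0428). The call needed every library: it ended without any 1 of the 3 DMSO or 3 RG6146 libraries (adjusted p from 0.0619 to 0.149, values from 0.43 to 0.55) and with library totals in place of TMM scaling (0.42, adjusted p = 0.0725). With TNF, E0771 had 84.8, 144 and 125 CPM, and in the combination 155.5, 163 and 147. The combination libraries all lay above the TNF libraries (1.35-fold, 0.44 ± 0.14, adjusted p = 0.0457). That call too ended without TNF replicate 1 (0.26, adjusted p = 0.102), without combination replicate 1, 2 or 3 (0.116, 0.161 and 0.0848), with only the 6 libraries (0.14) and with library totals (0.0704). TNF replicate 2, the library low in mitochondrial rRNA, held the highest TNF value, and without the libraries that stand apart the combination was 0.59 ± 0.13 above TNF (adjusted p = 0.00317).

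In MC38 the level of Dnajb1 was 69.4, 77.7 and 82.5 CPM with DMSO and 78.5, 95.7 and 120 with RG6146, groups that overlapped (0.33 ± 0.16, adjusted p = 0.244). It was 60.2, 65.9 and 71.5 with TNF and 98.0, 107 and 79.7 in the combination. These groups did not overlap, and the difference of 0.50 ± 0.16 had an adjusted p of 0.0645 with edgeR and of 0.0284 with DESeq2. Between the lines the RG6146 response of Dnajb1 differed by 0.11 ± 0.23, adjusted p = 0.909.

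Hsp90ab1 (chr17:45567775-45573271, minus strand), the constitutive HSP90, had the smallest p of the MC38 changes. The MC38 DMSO libraries had 6838, 7534 and 7251 CPM and the RG6146 libraries 10110, 10130 and 10110. All RG6146 libraries lay far above all DMSO libraries, by 1.38-fold (0.46 ± 0.10, adjusted p = 0.0129), and only the omission of RG6146 replicate 2 among the 6 moved the adjusted p over the threshold (0.46, 0.0573). With TNF the level was 7051, 7728 and 7544, and in the combination 10340, 8770 and 8542. The combination libraries stood above the TNF libraries without overlap, by 0.27 ± 0.10, which edgeR did not call (adjusted p = 0.103) and DESeq2 called (0.31, adjusted p = 0.0218).

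In E0771 Hsp90ab1 had 6210, 5667 and 5163 CPM with DMSO, 6073, 6514 and 6061 with RG6146, 5849, 6745 and 6057 with TNF, and 6267, 6355 and 7011 in the combination. The DMSO and RG6146 groups overlapped, and so did the TNF and combination groups (0.14 ± 0.09 with adjusted p = 0.337 and 0.11 ± 0.09 with adjusted p = 0.438). The response to RG6146 in E0771 minus that in MC38 was -0.36 ± 0.14, with an unadjusted p of 0.0142 and an adjusted p of 0.321.

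Hsp90aa1 (chr12:110690605-110702728, minus strand), the stress-inducible HSP90, rose with RG6146 in MC38 as well. Its level was 809, 785 and 923 CPM with DMSO and 1190, 1329 and 1363 with RG6146, with no overlap (1.52-fold, 0.60 ± 0.15, adjusted p = 0.0255). The call ended without DMSO replicate 1 (0.58, adjusted p = 0.0813), DMSO replicate 2 (0.55, 0.0799), RG6146 replicate 2 (0.58, 0.101) or RG6146 replicate 3 (0.57, 0.0902). With TNF it was 660, 993 and 936, and in the combination 1416, 1178 and 1056. The groups did not overlap, and the difference was 0.46 ± 0.15, adjusted p = 0.0639, with 0.0309 by DESeq2. TNF replicate 1, a library that stands apart, held the lowest value, and without the libraries that stand apart the difference was 0.33 ± 0.14, adjusted p = 0.196.

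E0771 gave smaller values for Hsp90aa1. The DMSO libraries had 653, 618 and 628 CPM, the RG6146 libraries 717, 705 and 711.5, the TNF libraries 661, 596 and 722, and the combination libraries 760.4, 736 and 732. Neither pair of groups overlapped. RG6146 against DMSO gave 0.18 ± 0.08 (adjusted p = 0.191, with 0.0305 when only the 6 libraries were fitted and 0.0466 without the libraries that stand apart). The combination against TNF gave 0.20 ± 0.08 (adjusted p = 0.108, with 0.0371 without TNF replicate 3). The difference between the lines in the RG6146 response was -0.46 ± 0.18, with an unadjusted p of 0.0177 and an adjusted p of 0.335. It was thus not shown that the HSP90 genes respond more in MC38.

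The remaining tested chaperones were not called in any comparison of treatments. Hspa8, the constitutive HSP70, ranged from 905 to 1209 CPM over all 24 libraries. RG6146 against DMSO gave 0.16 ± 0.08 in E0771 and 0.13 ± 0.10 in MC38 (adjusted p = 0.272 and 0.521). The combination against TNF gave 0.18 ± 0.08 and 0.18 ± 0.10 (adjusted p = 0.155 and 0.285). In both lines the combination libraries of Hspa8 all lay above the TNF libraries. In E0771 they did so only barely, with 1102 CPM as the lowest combination value and 1100 as the highest TNF value. Hsph1 (chr5:149614287-149636376, minus strand), the HSP110 exchange factor, ranged from 203 to 320 CPM, with -0.04 ± 0.08 and 0.07 ± 0.13 for RG6146 against DMSO. For Hsph1 in MC38 the combination libraries, at 320, 260 and 265, lay above the TNF libraries at 203, 246 and 250 (0.24 ± 0.13, adjusted p = 0.261).

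Bag3 (chr7:128523616-128546981, plus strand), the co-chaperone that links HSP70 to selective autophagy, gave negative values with RG6146 in MC38. Its level there was 64.0, 57.7 and 48.1 CPM with DMSO, 46.8, 44.2 and 43.6 with RG6146, 77.0, 57.5 and 54.0 with TNF, and 52.2, 47.0 and 53.9 in the combination. RG6146 lay below DMSO and the combination below TNF, both without overlap, and neither difference passed the test (-0.36 ± 0.16 with adjusted p = 0.196, and -0.34 ± 0.16 with adjusted p = 0.185). TNF replicate 1 held the highest value, and without the libraries that stand apart the second difference was -0.10 ± 0.15. In E0771 Bag3 stayed between 31.1 and 45.1 CPM, with differences from -0.02 to -0.12.

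Hspb1 (chr5:135887919-135889563, plus strand), a small heat shock protein, was at 0 counts in 17 of the 24 libraries and had at most 3 counts in any. Its 0 counts over the E0771 DMSO libraries allow a level of up to 0.159 CPM, and its 0 counts over the MC38 RG6146 libraries up to 0.123 CPM. These limits cover counting error only. It was also at 0 counts over the TNF and the combination libraries of E0771, and the other 4 groups had 1 to 4 counts each, so that Hspb1 was at or near the limit of detection in all 8 groups.

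Hsf1 (chr15:76477422-76501913, plus strand), the transcription factor itself, was measured by 24 to 139 counts per library. In MC38 it had 6.29, 9.79 and 3.62 CPM with DMSO, 9.84, 10.1 and 6.38 with RG6146, 19.8, 9.92 and 11.2 with TNF, and 5.04, 8.76 and 6.95 in the combination. The TNF libraries lay above the DMSO and the combination libraries without overlap. Neither difference passed edgeR's test (1.03 ± 0.36 for TNF against DMSO, adjusted p = 0.247, and -1.01 ± 0.36 for the combination against TNF, adjusted p = 0.0892). Without the filter on low counts both passed (adjusted p = 0.00631 and 0.00317), and without TNF replicate 1 the first was 0.65 ± 0.35. Both differences rest on the same 3 TNF libraries. In E0771 Hsf1 had 11.8, 14.0 and 13.1 CPM with DMSO, 16.5, 15.9 and 7.62 with TNF, 17.8, 11.8 and 14.7 with RG6146, and 12.8, 12.7 and 12.6 in the combination. All of these groups overlapped, and no difference exceeded its SE.

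The interaction asks whether the effect of 1 agent changes when the other is present. In E0771 0 of the 8 genes passed, where 0.0478% of all tested genes did. There Hspa1b had the largest value, 0.99 ± 0.41, with an unadjusted p of 0.029, the only one under 0.05, and DESeq2 called 0. Over all E0771 genes 427 had an unadjusted p under 0.05 and DESeq2 called 13. In MC38 0 of the 8 passed, as did 0% of all tested genes. Hspa1b (2.003 ± 0.77) and Hsf1 (-1.38 ± 0.51) had unadjusted p-values of 0.021 and 0.0177 there, and DESeq2 called 0 of the 8. Over all MC38 genes 772 had an unadjusted p under 0.05 and DESeq2 called 3. Without combination replicate 2 the MC38 value of Hspa1b was 0.99 ± 0.60.

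With the solvent alone the lines differed in 5 of the 8 tested genes, where 58.7% of 14058 genes differed, 28.9% higher and 29.9% lower in E0771. E0771 had less of both HSP90 transcripts: the Hsp90aa1 groups, 633 ± 17.96 and 839 ± 73.9 CPM (mean ± SD, n = 3), differed by -0.41 ± 0.13 (adjusted p = 0.00838). The Hsp90ab1 groups, 5680 ± 524 and 7208 ± 350 CPM, differed by -0.34 ± 0.10 (adjusted p = 0.00368). Bag3 was lower too (-0.48 ± 0.15, adjusted p = 0.00829). Dnajb1 was higher in E0771 (0.45 ± 0.16, adjusted p = 0.0203), as was Hsf1 (0.94 ± 0.32, adjusted p = 0.0155). In all 5 the libraries of the lines did not overlap, which was not counted over all genes and adds no support to the calls. The calls of the HSP90 genes held without any 1 of the 6 libraries. Those of Hsp90aa1 and Dnajb1 ended when the replicate number was added to the fit. That of Bag3 ended without E0771 DMSO replicate 1 (-0.37, adjusted p = 0.0635) or MC38 DMSO replicate 1 (-0.38, 0.0508), and that of Dnajb1 without E0771 DMSO replicate 3 (0.39, 0.0813) or MC38 DMSO replicate 1 (0.39, 0.0782). The call of Hsf1 ended without E0771 DMSO replicate 2 (0.86, 0.0578) or MC38 DMSO replicate 3 (0.66, 0.0923). Hspa1b, Hspa8 and Hsph1 gave 0.39 ± 0.46, 0.05 ± 0.09 and 0.07 ± 0.11. Line and any batch in which a line was handled cannot be told apart.

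Other chaperone genes came from lists written by compartment. The cytosolic list also holds Serpinh1, whose product is a chaperone of the endoplasmic reticulum and which was not called in any comparison. Among 34 tested co-chaperones and further HSF1 targets of the cytosol, RG6146 raised 2 in E0771 and lowered 0, where 3.96% of all tested genes were higher and 6.86% lower. That is near the share of all genes. Hspa2, an HSP70 best known from testis, was higher by 1.53 ± 0.28 (adjusted p = 0.00283), and Fkbp5, an HSP90 co-chaperone of steroid receptors, by 0.45 ± 0.13 (adjusted p = 0.0464). The Fkbp5 call held without DMSO replicate 2 and ended without any other of the 6 libraries (adjusted p from 0.0758 to 0.198). In MC38, 1 of the 34 was higher and 1 lower, where 3.37% of all genes were higher and 4.91% lower. Stub1, the ubiquitin ligase that binds HSP70, was higher by 0.68 ± 0.19 (adjusted p = 0.0437), a call that held without DMSO replicate 3 and ended without any other of the 6 libraries (0.0739 to 0.158). Hspb8, a small heat shock protein and partner of BAG3, was lower, at -0.83 ± 0.11 (adjusted p = 0.000656), from 388 ± 36.8 to 222 ± 20.02 CPM.

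In the combination against TNF the same list had 3 higher and 1 lower in E0771, where 7.12% of all genes were higher and 9.46% lower. It had 3 higher and 1 lower in MC38, where 3.7% were higher and 7.6% lower. Hspb8 was the lower gene in both lines (-0.60 ± 0.11 with adjusted p = 0.0018, and -1.09 ± 0.11 with adjusted p = 5.6e-05). The higher ones in E0771 were Hspa2 (1.88 ± 0.30, adjusted p = 0.000684), Fkbp5 (0.45 ± 0.13, 0.0319) and Ahsa2, an activator of HSP90 (0.40 ± 0.13, 0.0436). In MC38 they included Stub1 (0.77 ± 0.19, adjusted p = 0.022) and Stip1, which links HSP70 to HSP90 (0.56 ± 0.16, 0.0435). The Fkbp5 call ended without TNF replicate 3 or any 1 of the combination libraries (adjusted p from 0.0755 to 0.0994). That of Stub1 ended without TNF replicate 1 (0.055) or combination replicate 1 (0.0937). TNF against DMSO raised 1 of the 34 in E0771, where 1.88% of all genes were higher, and 0 in MC38, where 1.02% were. The E0771 gene was the autophagy receptor gene Sqstm1 (0.36 ± 0.08, adjusted p = 0.03). Its adjusted p was 0.183 without DMSO replicate 2 and 0.101 without DMSO replicate 3. None of the 2 tested genes of the heat shock factor list and none of the 8 CCT chaperonin subunits was called in any of these 6 comparisons. Between 1.09% and 16.6% of all tested genes were called in them. Counts out of 2 and 8 do not show that these families were called less often than other genes.

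The chaperones of the endoplasmic reticulum (ER), many of which answer to the unfolded protein response, had the highest median of the lists with RG6146 in E0771. The median over 13 tested genes was 0.33 in E0771 and 0.23 in MC38. In E0771, 3 of the 13 were higher with RG6146, beside 3.96% of all genes: Dnajb9 (0.89 ± 0.17, adjusted p = 0.00316), Calr (0.44 ± 0.09, adjusted p = 0.00796) and Hspa5. In MC38, 1 of the 13 was higher, beside 3.37% of all genes. It was Hspa5, the BiP gene, which went from 2622 ± 176 to 4664 ± 595 CPM (0.81 ± 0.12, adjusted p = 0.00112). In E0771 Hspa5 rose from 1671 ± 100 to 2205 ± 138 CPM (0.41 ± 0.09, adjusted p = 0.00914). The combination against TNF had 4 of 13 higher in E0771 (7.12% of all genes), Dnajb9 (1.16 ± 0.17, adjusted p = 0.000322), Hspa5 (0.38 ± 0.09, 0.0106), Calr and Hsp90b1, and 1 of 13 in MC38 (3.7% of all genes), Hspa5 (0.64 ± 0.12, 0.00396). TNF against DMSO called 0 of the 13 in either line, beside 2.32% of all genes in E0771 and 1.09% in MC38. Of 8 mitochondrial chaperones and proteases, RG6146 raised 0 in E0771 and 1 in MC38, beside 3.96% and 3.37% of all genes. It was Hspd1 (0.37 ± 0.11, adjusted p = 0.0499). That call held without DMSO replicate 3 and ended without any other of the 6 libraries (0.0748 to 0.158). In the combination against TNF 1 of the 8 was called in each line, beside 16.6% and 11.3% of all genes. Both genes encode proteases. Clpp was lower in E0771 (-0.48 ± 0.12, adjusted p = 0.0149, with 0.0738 without combination replicate 2). Lonp1 was higher in MC38 (0.41 ± 0.12, adjusted p = 0.0374), a call that ended without any 1 of the 6 libraries (0.0618 at the lowest). With DMSO, 28.9% of all genes were higher and 29.9% lower in E0771 than in MC38. Of the 34 co-chaperones and further HSF1 targets, 8 were higher and 16 lower, among them the kinase co-chaperone Cdc37 (1.35 ± 0.12) and Sqstm1 (-1.01 ± 0.11). Of the 13 ER chaperones, 7 were higher and 1, Hspa5, was lower (-0.65 ± 0.11). Of the 8 mitochondrial chaperones and proteases, 1 was higher and 5 lower, and of the 8 CCT subunits 1 was higher and 2 lower.

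**Figure D4:**
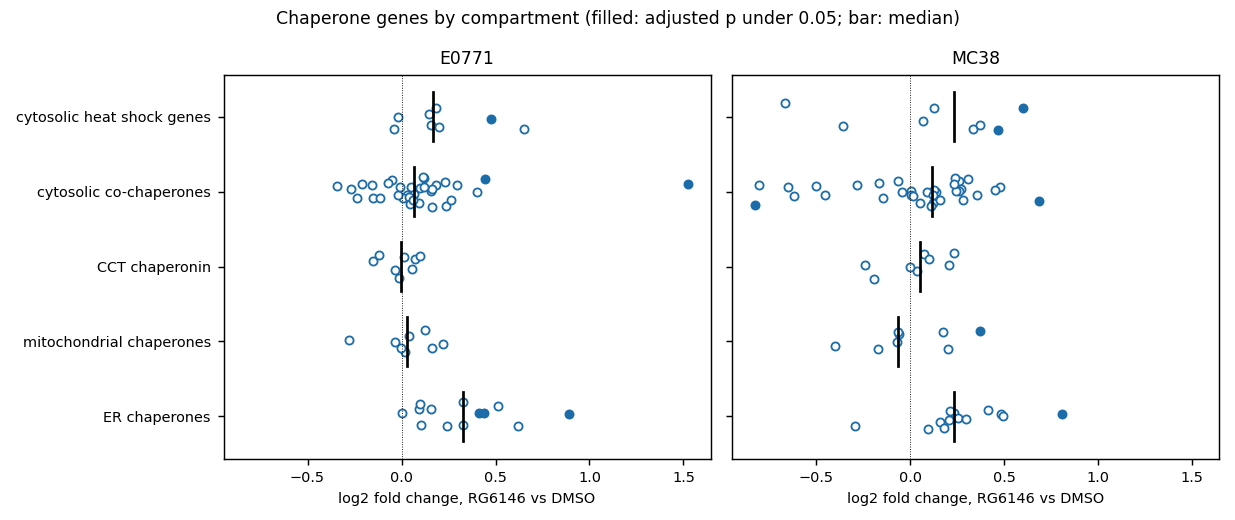
Log2 fold change of RG6146 against DMSO (x axis) for each tested gene of the chaperone lists, by list, in E0771 (left) and MC38 (right). The mitochondrial list includes the protease genes Clpp and Lonp1. Filled points passed an adjusted p of 0.05 and vertical bars are medians, which are 0.17 and 0.23 for the cytosolic heat shock genes and 0.33 and 0.23 for the ER chaperones.

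The correlations between the heat shock genes over the 24 libraries ranged from positive to negative. After the mean of each line was subtracted, log2 CPM of Hsp90aa1 and Hsp90ab1 correlated with r = 0.83 (rho = 0.81), and Hspa8 and Dnajb1 with r = 0.79 (rho = 0.75). Hspa1b had r = 0.03 (rho = 0.11) with Hsp90aa1. Bag3 went against Hsp90aa1 (r = -0.74, rho = -0.70) and Hsf1 against Hsph1 (r = -0.79, rho = -0.73). MC38 TNF replicate 1, a library that stands apart, held the highest MC38 values of Bag3 and Hsf1. It also held the lowest of Hsp90aa1 and Hsph1, and these pairs are not given without it. Hspa1b and Hsf1 rest on only 12 to 127 and 24 to 139 counts per library. All these correlations describe libraries that share treatments and depth, and carry no test. The genes most like each called member, out of 9499 compared, were Acat2 (r = 0.91, rho = 0.91) and Tubb4b (0.89, 0.92) for Dnajb1, Specc1l (0.95, 0.87) and Srrm2 (0.94, 0.91) for Hsp90aa1, Sirt7 (0.94, 0.92) and Atf4 (0.93, 0.91) for Hsp90ab1, and Diaph1 (0.85, 0.76) and Zfand2a (0.82, 0.78) for Hspa1b. With the 4 libraries that stand apart left out, the r of these 8 pairs lay between 0.78 and 0.94.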

How the data were processed

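The authors deposited 1 table of raw read counts per gene (unit count, per the deposited values, which are whole numbers), with 43629 mouse gene identifiers and 24 libraries. Per the labels' protocols, libraries were made from RNA with the QuantSeq 3′ kit and read as single 75 bp ends. Per the submitters' processing notes, bcl2fastq 2.17.1.14, cutadapt 1.14, HISAT2 2.1.0, featureCounts of Subread 1.5.2, limma and the build mm10 were used. The sources used here do not give the annotation release, the strand setting, or how multi-mapping reads and molecular barcodes were treated. Symbols came from a reference list that held 42462 of the identifiers.

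Each line was fitted apart with edgeR 4.0.16 in R 4.3.3: filterByExpr, TMM scaling, and the two-sided quasi-likelihood F test over 12 libraries in 4 groups of 3. P-values were adjusted by Benjamini-Hochberg over all tested genes, and genes were called under 0.05. Fold changes use a prior count of 0.125, and SE is the absolute log2 fold change over the root of F. Differences between lines came from 1 fit of 24 libraries, whose TMM scale also gives the printed CPM. The interaction is the TNF effect with RG6146 minus that without it. Hspa1a and Hspb1 did not pass the filter. Marker sums are CPM of the raw totals.

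The genes, lists, tests and alternatives were chosen with earlier results of these data known. The rule named the 10 heat shock genes always, Hexim1 and Nfkbia as checks, up to 2 called genes per list, comparison and direction, and the 3 genes most correlated with each called member among those with a mean count of at least 20 (prior count 2), predicted genes left out. Hspa5 with RG6146 in E0771, Ahsa2, Stip1, Hsp90b1 and Calr in the combination fall outside it and were named after their values were seen. Alternatives were library totals, DESeq2 1.42.0, no filter, the replicate block, Hspa1a and Hspa1b summed, only the 6 libraries, each library left out and, added after the data were seen, no libraries that stand apart. Some items of the lists are not reported here.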

Additional observations from a re-analysis of the deposited data

Results flagged for a closer look

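Among all the genes named, 1 had an RG6146 response that passed the test of a difference between the lines. Of all 14058 tested genes, 0.384% passed it. Hspa2, a member of the HSP70 family, responded in E0771 more than in MC38 by 2.29 ± 0.48 on the log2 scale (edgeR quasi-likelihood test, adjusted p = 0.0332). In E0771 its level was 2.64 ± 0.76 CPM with DMSO and 7.62 ± 0.95 with RG6146 (mean ± SD, n = 3), and in MC38 2.58 ± 0.95 and 1.46 ± 0.21. These levels rest on 10 to 49 counts per library. The E0771 rise of 1.53 ± 0.28 held without any 1 of its 6 libraries, while the MC38 value of -0.81 ± 0.40 did not pass the test (adjusted p = 0.261). The difference between the lines kept its sign without each of the 12 libraries, from 1.997 to 2.60, and passed the test in 2 of the 12 cases, without E0771 DMSO replicate 2 or MC38 DMSO replicate 2, with adjusted p from 0.0165 to 0.113 over all 12. DESeq2 gave 2.34 with an adjusted p of 0.00673, and without the libraries that stand apart it was 2.59 with 0.00303.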

How the results depend on the processing

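The number of the 8 tested heat shock genes called was recomputed under each alternative. For RG6146 against DMSO in E0771 it went from 1 to 0 with library totals, 3 with only the 6 libraries and 2 without the libraries that stand apart. For the combination against TNF in E0771 it went from 2 to 1 with library totals and 1 with only the 6 libraries. For the combination against TNF in MC38 it went from 0 to 3 with DESeq2 and 5 without the filter. Without the filter the MC38 count was 1 for TNF against DMSO and 3 for the interaction, from 0 each. With 1 library left out it ranged from 0 to 0 and from 0 to 2 for RG6146 in E0771 and MC38, from 1 to 3 for the combination against TNF in E0771, and from 3 to 5 for the lines with DMSO. The cause of these changes was not tested. The replicate block took the count between the lines from 5 to 3 (Hsp90aa1 -0.31, adjusted p = 0.126, and Dnajb1 0.45, 0.0615) and left the others as they were. Same-numbered libraries correlated from -0.24 to 0.17 in E0771 and from -0.40 to 0.30 in MC38, over 0.1 in 2 and 5 of 18 pairs. The 5 MC38 pairs were all of replicates 1 or 3 among DMSO, RG6146 and TNF. With 3 libraries a group such values cannot decide whether the replicate numbers pair the samples. Of 1586 recomputed values of named genes, 96 lost and 14 gained a call, and 0 called ones reversed. In 4 an uncalled value changed sign and moved by its SE or more. The other 1472 were counted as unchanged, which includes uncalled values that changed sign but moved by less than their SE. Shifts of any size that kept the sign and the call were counted as unchanged too. An example is Hspa1b in the MC38 combination against TNF, 1.34 in the main fit and 0.32 at the lowest with 1 library left out. Depth limits Hspa1a, Hspb1, Hspa1b and Hsf1 most.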
